A study of Mus musculus with 12 samples.

Results

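The genes described are 9 that encode the machinery orienting the mitotic spindle: Insc, Gpsm1, Gpsm2, Numa1, Gnai1, Gnai2, Gnai3, Dync1h1 and Dctn1. They were chosen by gene name and not by their values, though earlier results of these data were known. Each matched 1 row among the 46078 genes of the count table, and all 9 passed the filter on low counts that left 14582 genes for testing.

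The 12 RNA libraries came from skin epidermis of mice taken as newborns, 3 for each of 4 genotypes, and the stated design gives a separate mouse for each. Llgl cKO Trp53 het mice carried K14-Cre, floxed alleles of Llgl1 and Llgl2 on both chromosomes (Llgl1/2 flox/flox) and 1 floxed Trp53 allele (Trp53 +/flox). Llgl cKO mice carried K14-Cre and Llgl1/2 flox/flox, and Trp53 het mice carried K14-Cre and Trp53 +/flox. Control mice carried K14-Cre alone, so all 4 groups express this Cre recombinase, which the keratin 14 promoter drives in basal keratinocytes, and recombination is limited to those cells and their descendants. Llgl1 and Llgl2 encode the mouse counterparts of a Drosophila polarity protein, Lethal giant larvae, and p53, the product of Trp53, is a tumour suppressor. The comparisons asked how gene expression changed on loss of Llgl1/2, with and without loss of 1 Trp53 allele.

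A dividing basal keratinocyte can place its spindle parallel to the basement membrane, which leaves both daughters in the basal layer, or at a steep angle, which sends a daughter upwards into the differentiating layers. Inhibitory G protein alpha subunits anchored in the membrane bind the adaptor LGN (Gpsm2), which binds NuMA, which in turn recruits the motor dynein with its partner complex dynactin to pull on astral microtubules. Inscuteable (Insc) ties LGN to the apical polarity complex. Transcript levels were measured here, and neither the proteins nor their place at the cell cortex was.

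Total counts per library ran from 6738720 to 14509507. Keratinocyte markers were strong in every group, with Krt14 of basal cells at 3511 to 5722 CPM (counts scaled by library size) and Krt10 of suprabasal cells at 21731 to 45003 CPM. The endothelial and the muscle marker lists each summed to at most 1.84 CPM in any library, and the endothelial marker Cdh5 was at 0 counts in every Llgl cKO Trp53 het and control library. Llgl2, a targeted gene, averaged 8.51 ± 3.38 CPM in Llgl cKO Trp53 het libraries and 8.35 ± 1.16 CPM in Llgl cKO libraries. Its means with intact Llgl1/2 were 90.9 ± 22.0 CPM in Trp53 het libraries and 86.7 ± 22.3 CPM in control libraries (SD, n = 3 each). Llgl1 was higher in the Llgl cKO genotypes, with 215 ± 30.5 CPM for Llgl cKO Trp53 het and 256 ± 33.2 CPM for Llgl cKO. The means were 133 ± 9.58 CPM for Trp53 het and 138 ± 30.6 CPM for control. Counts per gene do not resolve the floxed exons. Trp53 stood at 77.3 ± 18.2 CPM for Llgl cKO Trp53 het and 79.2 ± 30.9 CPM for Trp53 het. The genotypes with intact Trp53 had 118 ± 5.50 CPM for Llgl cKO and 121 ± 10.98 CPM for control. The library labelled Trp53 het 3 went against its label with 114.8 CPM of Trp53, inside the control range of 109 to 130.5.

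That library and control 3 also stood apart from the other replicates of their groups. A list of 18 mitosis genes (Mki67, Top2a, Cdk1 and others) summed to 1211 to 1543 CPM in Llgl cKO Trp53 het and to 1017 to 1116 CPM in Llgl cKO. The sum was 1965 CPM in Trp53 het 3, against 353 and 354 CPM in Trp53 het 1 and 2. The same sum was 1692 CPM in control 3, against 282 and 409 CPM in control 1 and 2. Trp53 het 3 is named hereafter as labelled, and results that rest on those 2 libraries are given with and without them.

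The promoters of Gpsm2, which encodes the adaptor LGN, and of its paralogue Gpsm1 are shown because Gpsm1 had the widest and Gpsm2 a much narrower spread over the libraries. RefSeq promoter sequences (GRCm38.p6) were found for 8 of the 9 genes by symbol, and where a gene had several, the one nearest its GENCODE start was taken. Each line below gives 150 bases, from 170 to 21 bases before the annotated start, 5′ to 3′ on the strand of the gene, with the matches to 3 motifs in capitals. Gpsm1 lies at chr2:26315363-26315512 on the plus strand and Gpsm2 at chr3:108722320-108722469 on the minus strand.
Gpsm1: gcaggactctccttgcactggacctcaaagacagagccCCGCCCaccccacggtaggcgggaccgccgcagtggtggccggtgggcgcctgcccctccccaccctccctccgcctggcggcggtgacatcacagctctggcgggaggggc
Gpsm2: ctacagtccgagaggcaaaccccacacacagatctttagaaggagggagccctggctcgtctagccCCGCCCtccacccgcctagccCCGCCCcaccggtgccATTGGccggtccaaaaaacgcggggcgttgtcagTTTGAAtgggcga
The motifs searched on both strands were TTTGAA (the core of the cell cycle genes homology region), CCAAT and GGGCGG (the GC box), which share no bases in these windows. Gpsm2 held TTTGAA 33 bases, a CCAAT box 67 bases, and GC boxes 83 and 104 bases before its start. The Gpsm1 window held a single GC box, 132 bases before its start. The table has 4 starts for Gpsm1 and 1 for Gpsm2. Of the other Gpsm1 windows, 2 held no motif and the one at a start 4255 bases from the GENCODE start held a CCAAT box and 3 GC boxes. Among the windows taken for the 8 genes, TTTGAA and CCAAT occurred in Gpsm2 alone, while GC boxes also occurred in Gnai1 (3) and Dync1h1 (1). Of 32851 promoter windows of the same length, 9.41% held TTTGAA, 24.6% a CCAAT box and 26.4% a GC box. The windows of Insc, Numa1 and Dctn1 belong to starts 2072, 35732 and 13669 bases from the GENCODE start of the gene. A match is a string of letters and was not tested as a site.

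Levels of different genes were compared per kilobase of annotated exon. Gnai3 was highest, with a mean of 88.4 CPM per kilobase over the 12 libraries (range 75.8 to 101.6). Gnai2 followed at 36.8 (30.1 to 42.3), Numa1 at 30.9 (27.6 to 35.6), Dync1h1 at 29.8 (24.4 to 32.8), Gpsm1 at 29.6 (12.8 to 55.9), Dctn1 at 27.2 (24.4 to 30.8), Gpsm2 at 24.8 (18.3 to 28.3) and Gnai1 at 16.4 (12.7 to 24.1). Insc was lowest at 0.785 CPM per kilobase (0.405 to 1.08). The ranges of Gnai3 and of Insc met no other gene's, while every neighbouring pair from Gnai2 down to Gnai1 overlapped in range. Such overlap leaves out that all genes were measured in the same libraries. Gnai2 lay above Numa1, and Gpsm2 above Gnai1, within each of the 12 libraries. The latter pair was closest in control 2, at 24.19 and 24.08 CPM per kilobase. More distant genes in that order can also be apart in range, as Gnai2 was from Gpsm2 and Gnai1. A transcript confined to cells in division and one low in every cell cannot be told apart in bulk RNA.

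**Figure D1:**
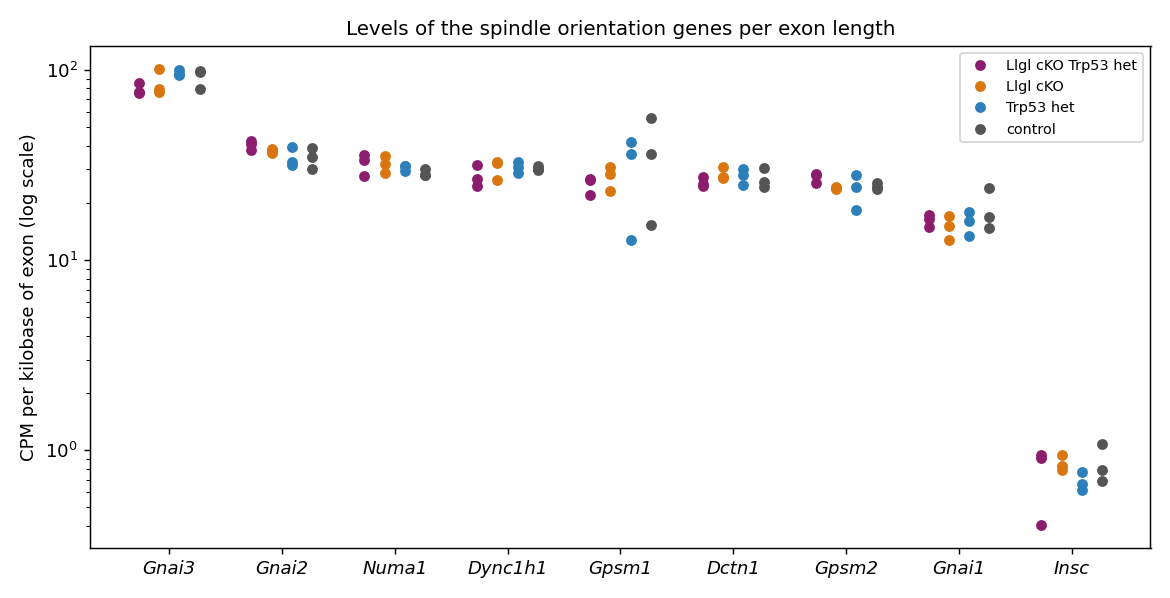
Level of each spindle orientation gene per library, in CPM per kilobase of exon on a log axis, with 1 point per library, coloured by genotype, and genes in order of their mean. Gnai3 lies above all other members and Insc far below, and Gpsm1 spreads most among the Trp53 het and control libraries (12.8 to 55.9).

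Insc (chromosome 7, 114743694 to 114850383, plus strand, GRCm38) encodes the adaptor that couples LGN to the apical Par complex. Its level was 3.37, 3.50 and 1.51 CPM in Llgl cKO Trp53 het libraries 1 to 3, 3.09, 2.92 and 3.52 CPM in Llgl cKO, 2.31, 2.47 and 2.86 CPM in Trp53 het, and 2.94, 2.55 and 4.03 CPM in control. All 4 groups overlapped, and the lowest library was Llgl cKO Trp53 het 3. Between 17 and 50 reads per library stand behind these values, so this gene has the least precision of the 9 from counting.

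Gpsm2 (chromosome 3, 108678638 to 108722309, minus strand) encodes LGN, the adaptor between G protein alpha subunits and NuMA. It had 99.8, 109.8 and 110.4 CPM in Llgl cKO Trp53 het, 94.7, 94.2 and 92.1 CPM in Llgl cKO, 71.4, 94.5 and 109.6 CPM in Trp53 het, and 92.5, 94.6 and 99.1 CPM in control. The Llgl cKO Trp53 het libraries all lay above the Llgl cKO libraries and above the control libraries, but the Trp53 het libraries spanned almost the whole range. In Llgl cKO the 3 libraries differed by at most 1.03-fold.

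Gpsm1 (chromosome 2, 26315515 to 26348237, plus strand) encodes AGS3, the paralogue of LGN with the same GoLoco and TPR organisation. It had 144, 142 and 118 CPM in Llgl cKO Trp53 het, 166, 124 and 153 CPM in Llgl cKO, 224, 195 and 68.7 CPM in Trp53 het, and 301, 195 and 82.6 CPM in control. The lowest libraries were those labelled Trp53 het 3 and control 3, and the highest were the other libraries of the same groups. Gpsm1 varied most of the 9, with a coefficient of variation of 39.9% over the 12 libraries, against 8.68% to 22.8% for the others. Its libraries spanned 1.41-fold over the Llgl cKO genotypes and 4.38-fold over the genotypes with intact Llgl1/2. Of the summed Gpsm1 and Gpsm2 level per kilobase, Gpsm1 made up 43.7% to 51.2% in Llgl cKO Trp53 het, 48.8% to 56.0% in Llgl cKO, 31.3% to 69.5% in Trp53 het and 37.7% to 70.3% in control. The longest run of identical bases between transcripts of the paralogues was 13.

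Numa1 (chromosome 7, 101934111 to 102014964, plus strand) encodes NuMA, which binds LGN and dynein. It had 267, 218 and 282 CPM in Llgl cKO Trp53 het, 228, 280.1 and 255 CPM in Llgl cKO, 234, 247 and 247 CPM in Trp53 het, and 221, 223 and 238 CPM in control. The groups overlapped, and both the lowest and the highest library belonged to Llgl cKO Trp53 het.

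The inhibitory alpha subunits anchor the complex in the membrane. Gnai1 (chromosome 5, 18265135 to 18360355, minus strand) had 47.1, 51.4 and 54.1 CPM in Llgl cKO Trp53 het, 47.1, 39.9 and 53.5 CPM in Llgl cKO, 42.2, 56.1 and 50.1 CPM in Trp53 het, and 46.4, 75.5 and 52.6 CPM in control. Control 2 alone was high. Gnai2 (chromosome 9, 107614125 to 107635367, minus strand) had 154, 159.9 and 144 CPM in Llgl cKO Trp53 het, 145, 144 and 139 CPM in Llgl cKO, 124, 120.1 and 148 CPM in Trp53 het, and 131, 114 and 147 CPM in control. The Trp53 het 3 and control 3 libraries lay inside the range of the Llgl cKO genotypes, and the other 4 libraries with intact Llgl1/2 lay below it. Gnai3 (chromosome 3, 108107280 to 108146146, minus strand) had 247, 249 and 279 CPM in Llgl cKO Trp53 het, 259.9, 249.5 and 331 CPM in Llgl cKO, 307, 326 and 311 CPM in Trp53 het, and 261, 321 and 319.7 CPM in control. Every Llgl cKO Trp53 het library lay below every Trp53 het library.

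Per kilobase, Gnai3 made up 56.5% to 60.7% of the 3 subunits in Llgl cKO Trp53 het, 59.8% to 65.4% in Llgl cKO, 63.4% to 67.0% in Trp53 het and 61.7% to 64.5% in control. Gnai2 made up 27.0% to 31.3%, 23.7% to 29.9%, 21.2% to 26.0% and 19.7% to 26.9% of the sum in the same 4 groups, and Gnai1 9.57% to 15.8% over all libraries. The order Gnai3, Gnai2, Gnai1 held in each of the 12 libraries. Transcripts of these paralogues shared runs of at most 32 identical bases (Gnai1 with Gnai2), so a short stretch could be assigned to either.

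The motor side is represented by the largest subunits of dynein and dynactin. Dync1h1 (chromosome 12, 110601452 to 110666945, plus strand), the heavy chain that moves along microtubules, had 419.7, 383 and 494 CPM in Llgl cKO Trp53 het, 415, 514 and 507 CPM in Llgl cKO, 449, 511 and 482 CPM in Trp53 het, and 487, 473 and 467 CPM in control. Dctn1 (chromosome 6, 83165920 to 83200117, plus strand), the p150Glued arm of dynactin, had 163, 179 and 159 CPM in Llgl cKO Trp53 het, 179, 175 and 200.2 CPM in Llgl cKO, 196, 183 and 162 CPM in Trp53 het, and 199, 167 and 159 CPM in control. For both genes the groups overlapped, and both varied little, with coefficients of variation of 9.02% and 8.68%. All 9 genes are annotated as protein-coding. Exons on the opposite strand overlap 5.19% of the Gpsm2 exon length (Clcc1), 2.17% of Gpsm1 (Dnlz), 1.01% of Numa1 (Il18bp) and up to 2.57% of Dync1h1 (Gm35558), so a few of their reads are uncertain because the strand setting of the counting is not given in the sources used here.

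**Figure D2:**
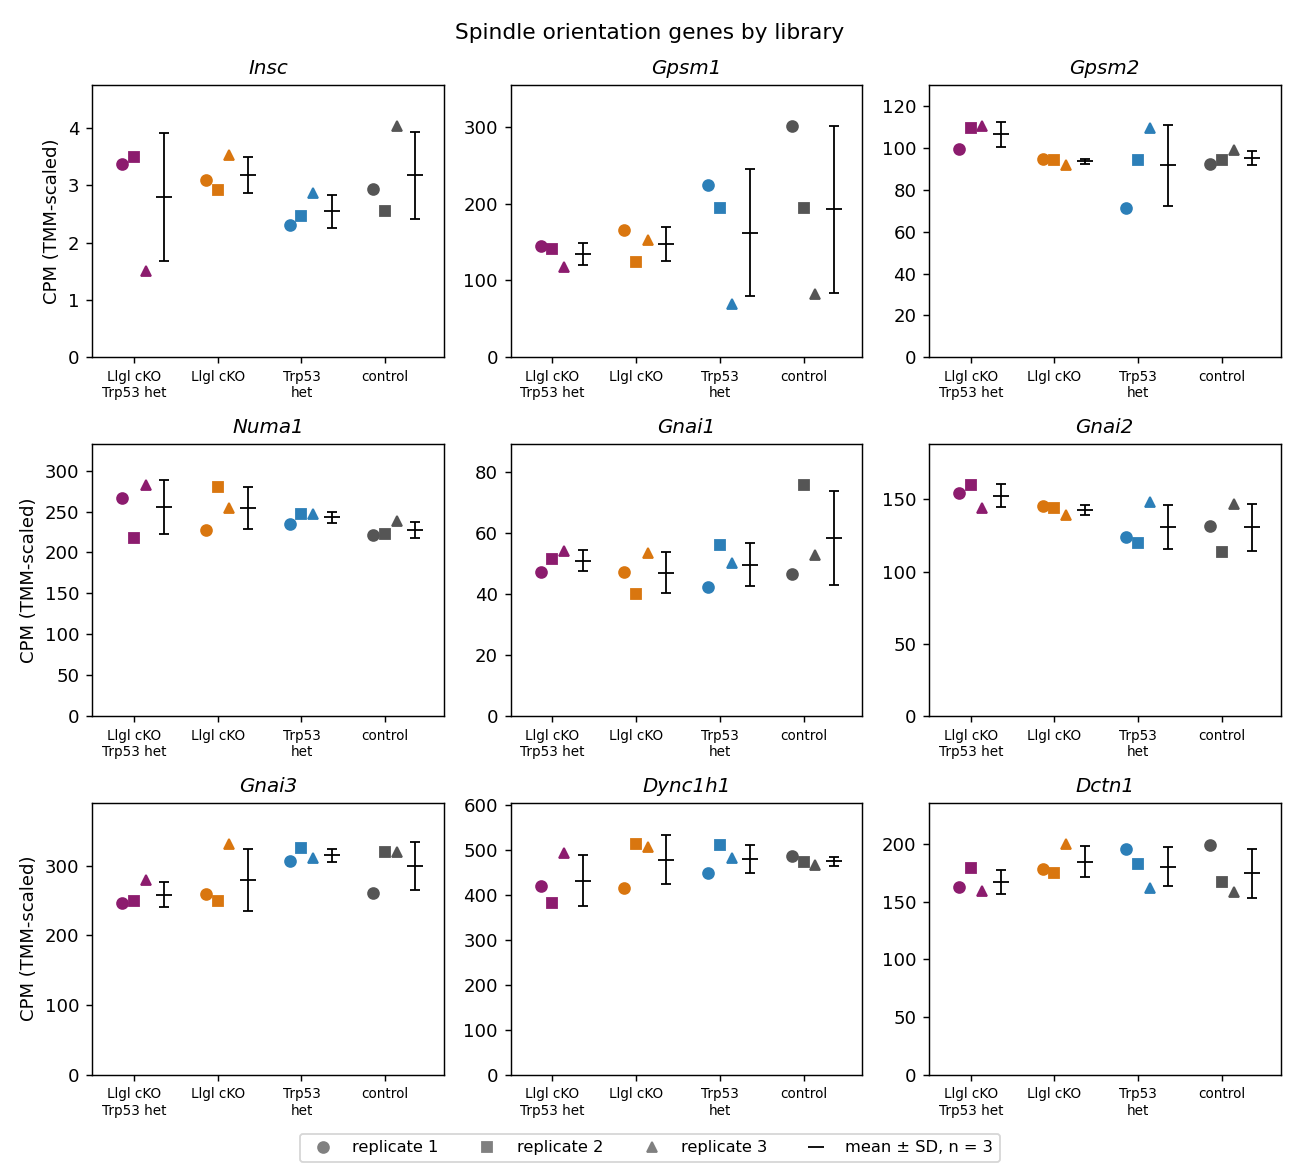
CPM on TMM-scaled library sizes of the 9 genes in each library, by genotype, with marker shape for the replicate number and a dash with bars for the mean ± SD (n = 3), each axis starting at 0. Most genes overlap between all groups, and Gpsm1 in Trp53 het and control runs from 68.7 to 301 CPM with replicate 3 lowest in each.

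No change was called in any of the 9 genes on loss of Llgl1/2. The average Llgl effect set the 6 libraries of the Llgl cKO genotypes against the 6 with intact Llgl1/2. With edgeR's quasi-likelihood test and a Benjamini-Hochberg adjusted p below 0.05 it called 0 of 9 members, where 3.33% of all tested genes were called. At an unadjusted p below 0.05 it was also 0 of 9 members, where 18.2% of tested genes passed, and DESeq2 called 0 of 9 where it called 7.1% of its genes. The median log2 change was -0.016 over the members and -0.0026 over all genes tested. The groups of 6 overlapped for every member, where 2.5% of tested genes had no overlap.

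The nearest to a change were the G protein subunits, in opposite directions. Gnai2 averaged 148 ± 7.72 CPM in the Llgl cKO genotypes and 131 ± 14.2 CPM in the genotypes with intact Llgl1/2 (SD, n = 6 each), a log2 difference of 0.18 (95% interval -0.0088 to 0.36, edgeR adjusted p = 0.301). Gnai3 averaged 269 ± 32.7 CPM in the Llgl cKO genotypes and 308 ± 24.0 CPM in those with intact Llgl1/2, a log2 difference of -0.19 (-0.40 to 0.016, edgeR adjusted p = 0.315). Neither difference passed the threshold. For Gnai1 the log2 difference was -0.14 (-0.42 to 0.15, edgeR adjusted p = 0.629).

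Among the adaptors, the log2 difference was 0.095 for Gpsm2 (95% interval -0.11 to 0.30, edgeR adjusted p = 0.652), 0.12 for Numa1 (-0.071 to 0.31, edgeR adjusted p = 0.518) and 0.061 for Insc (-0.44 to 0.56, edgeR adjusted p = 0.922). The motor genes were at -0.072 for Dync1h1 (-0.28 to 0.13, edgeR adjusted p = 0.738) and -0.016 for Dctn1 (-0.20 to 0.17, edgeR adjusted p = 0.949). Each of these intervals but that of Insc lies within 0.5 on the log2 scale in either direction, which also holds for the 3 alpha subunits, so 7 of the 9 genes were bounded that tightly. The signs of the Insc and Dctn1 differences were not stable and turned on leaving out single libraries.

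Gpsm1 was the exception in precision. It averaged 141 ± 17.9 CPM in the Llgl cKO genotypes and 178 ± 88.2 CPM in those with intact Llgl1/2 (SD, n = 6 each). Its log2 difference was -0.33 with a standard error of 0.32, larger than the standard error of 83.4% of tested genes (95% interval -1.03 to 0.38, edgeR adjusted p = 0.647). The interval holds both no difference and a fall to 0.49 times the level. Leaving out single libraries moved the value between -0.51, without the library labelled Trp53 het 3, and -0.095, without control 1, and changed no call.

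**Figure D3:**
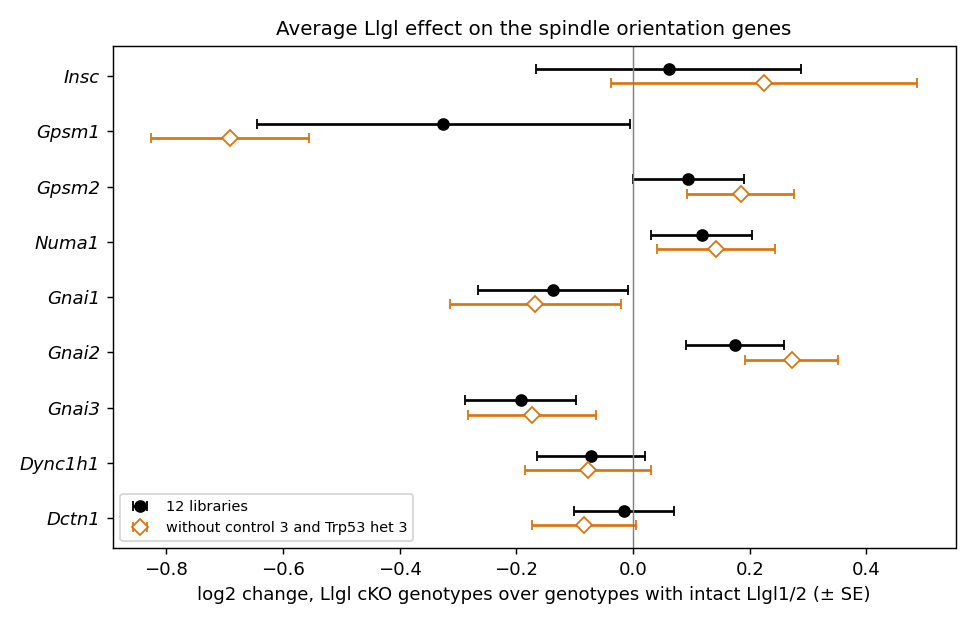
Log2 change of each gene in the Llgl cKO genotypes over the genotypes with intact Llgl1/2, with bars for the standard error, from all 12 libraries (filled circles) and without control 3 and Trp53 het 3 (open diamonds). Gpsm1 is at -0.33 with all libraries and at -0.69, with a smaller error, without those libraries.

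Without control 3 and the library labelled Trp53 het 3, which earlier results of these data had set apart, 2 of 9 members were called in the average Llgl effect. Gpsm1 fell by 0.69 on the log2 scale (standard error 0.14, edgeR adjusted p = 0.00651) and Gnai2 rose by 0.27 (standard error 0.080, edgeR adjusted p = 0.0407). In that fit 15.8% of all tested genes were called. The libraries left out hold the lowest Gpsm1 values of all 12 and the highest Gnai2 values of their groups, so their removal moves both means in the direction of the calls. The other 7 members were not called, with adjusted p from 0.200 (Gpsm2) to 0.675 (Dync1h1).

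Gpsm1, Gpsm2 and Gnai2 were read beside the mitosis genes in each library. Over the 12 libraries the 4 lowest mitosis sums (282 to 409 CPM, in Trp53 het 1 and 2 and control 1 and 2) were those with the 4 highest Gpsm1 levels, at 195 to 301 CPM. The 2 highest sums (1692 and 1965 CPM) went with the 2 lowest Gpsm1 levels, at 82.6 and 68.7 CPM. Gnai2 was at 114 to 131 CPM in those 4 libraries with low sums and at 139 to 159.9 CPM in the other 8. Gpsm2 was at 71.4 to 94.6 CPM in the 4 and at 92.1 to 110.4 CPM in the 8, with overlap. All 18 mitosis genes had positive log2 differences in the average Llgl effect, with a median of 0.58. Of these 0 of 18 were called by edgeR, where 3.33% of all tested genes were called. Without control 3 and Trp53 het 3, 18 of 18 were called, with a median of 1.81, where 15.8% of all tested genes were called. Those libraries hold the 2 highest mitosis sums, and both have intact Llgl1/2. Leaving them out raises the mitosis differences by selection, so the 18 calls are no separate evidence. The part of the mitosis differences between libraries in the Gpsm1 and Gnai2 values was not tested. Since the libraries fall into separate clusters, no correlation with the mitosis sum is given.

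**Figure D4:**
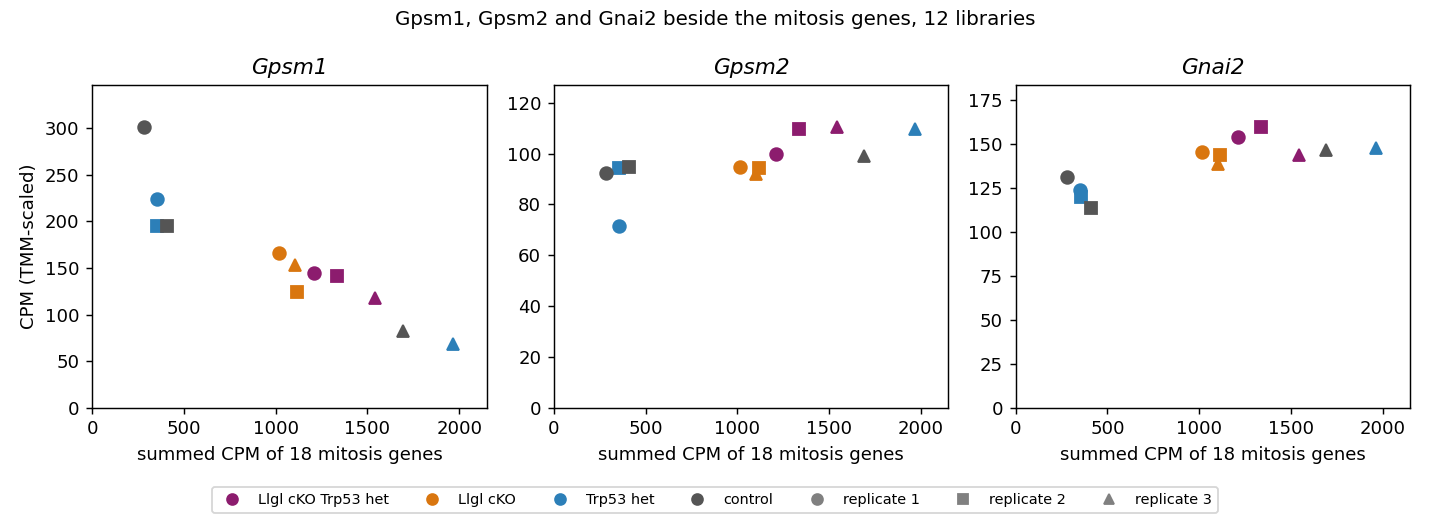
CPM of Gpsm1, Gpsm2 and Gnai2 in each library against the summed CPM of 18 mitosis genes in the same library, coloured by genotype with marker shape for the replicate. Trp53 het and control replicates 1 and 2 lie at 282 to 409 CPM of mitosis genes with Gpsm1 at 195 CPM or above, and their replicate 3 libraries at 1692 and 1965 CPM with Gpsm1 at 82.6 and 68.7 CPM.

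Fibroblast markers also differed between libraries, with a summed level of 172 to 239 CPM in Llgl cKO Trp53 het, 122 to 209 CPM in Llgl cKO, 32.6 to 138 CPM in Trp53 het and 27.8 to 143 CPM in control. Of the 6 markers 5 were tested, with 3 positive and 2 negative log2 differences in the average Llgl effect. There edgeR called 0, where it called 3.33% of all tested genes, and DESeq2 called Dcn higher, where it called 7.1%. Without control 3 and Trp53 het 3, where 15.8% of all tested genes were called, Dcn and Col1a2 were called higher. The median log2 difference of the 5 was then 1.26, with 4 positive and 1 negative, against 0.18 with all libraries. The defining marker Col1a1 was above 0 in every library at 1.28 to 11.6 CPM. Unlike the summed level, its mean was not higher in the Llgl cKO genotypes. Col1a1 averaged 2.12 CPM in Llgl cKO Trp53 het, 1.98 CPM in Llgl cKO, 5.82 CPM in Trp53 het and 2.43 CPM in control. Trp53 het 3 held the 11.6 CPM, against 2.95 and 2.91 CPM in Trp53 het 1 and 2. The part of fibroblasts in the values above was not tested. Hair shaft and inner root sheath markers summed to 196 to 523 CPM in Llgl cKO Trp53 het, 1089 to 3381 CPM in Llgl cKO, 2249 to 5736 CPM in Trp53 het and 1549 to 7130.2 CPM in control. In the average Llgl effect edgeR called 12 of 15 tested, 11 of them lower, where 3.33% of all tested genes were called. T cell markers summed to 9.39 to 21.1 CPM in Llgl cKO Trp53 het, 6.18 to 14.3 CPM in Llgl cKO, 13.2 to 52.3 CPM in Trp53 het and 23.1 to 35.2 CPM in control. In the same comparison 2 of 7 were called lower, and 5 of 7 without control 3 and Trp53 het 3, where the share was 15.8%. In Llgl cKO against control, with all libraries, edgeR and DESeq2 called 0 markers of either list. The shares of tested genes called there were 0.226% and 0.782%. In Llgl cKO Trp53 het against Trp53 het, edgeR called 11 of the 15 hair markers lower, where the share was 1.36%.

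Adipocyte markers summed to 0.335 to 0.769 CPM in Llgl cKO Trp53 het and 1.67 to 3.57 CPM in Llgl cKO, against 17.4, 13.1 and 2.71 CPM in Trp53 het libraries 1 to 3 and 29.1, 13.3 and 2.02 CPM in control libraries 1 to 3. Of the 4 markers 2 were tested, Fabp4 and Retn, while Adipoq and Plin1 did not pass the filter on low counts. Both tested markers were called lower by edgeR in the average Llgl effect, where 3.33% of all tested genes were called. Without control 3 and Trp53 het 3 both were again called lower, where 15.8% were. In Llgl cKO against control with all libraries, edgeR and DESeq2 called 0 of the 2. Among the Trp53 het and control libraries the adipocyte marker sum, like Gpsm1, was lowest in replicate 3. Mitochondrial transcripts, read for RNA quality, summed to 10715 to 15195 CPM in Llgl cKO Trp53 het, 10245 to 12161 CPM in Llgl cKO, 10980.0 to 12149 CPM in Trp53 het and 7503 to 11799 CPM in control. The 5 tested had positive log2 differences in the average Llgl effect. Of these 0 were called by edgeR or DESeq2, where they called 3.33% and 7.1% of all tested genes. The part of these transcripts and cells in the member values was not tested.

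In the comparison of Llgl cKO with control, 0 of 9 members were called by edgeR (adjusted p), where 0.226% of tested genes were. At an unadjusted p below 0.05 it was 0 of 9 against 6.31% of genes, and by DESeq2 0 of 9 against 0.782%. The member log2 changes ran from -0.38 (Gpsm1) to 0.16 (Numa1), with a median of -0.0076 over the members and -0.0065 over all genes. No member separated the groups, as 9.8% of tested genes did.

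In the comparison of Llgl cKO Trp53 het with Trp53 het, 0 of 9 were called by edgeR (adjusted p) against 1.36% of tested genes. At an unadjusted p below 0.05 it was 0 of 9 against 15.4% of genes, and by DESeq2 0 of 9 against 4.96%. The smallest unadjusted p of any member in any comparison was here, for Gnai3, whose groups did not overlap. Gnai3 averaged 258 ± 17.96 CPM in Llgl cKO Trp53 het and 315 ± 9.88 CPM in Trp53 het (SD, n = 3 each), a log2 difference of -0.29 that was not called (95% interval -0.58 to 0.0098, edgeR adjusted p = 0.345). Groups were separated in this direction for 10.7% of all tested genes, near the share of 1 in the 9 members.

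In the comparison of Llgl cKO Trp53 het with control, 0 of 9 were called by edgeR (adjusted p) against 1.25% of tested genes. At an unadjusted p below 0.05 it was 0 of 9 against 13.9% of genes, and by DESeq2 0 of 9 against 4.42%. The log2 changes ran from -0.51 (Gpsm1) to 0.23 (Gnai2). Gpsm2 alone separated the groups, at 107 ± 5.95 CPM in Llgl cKO Trp53 het and 95.4 ± 3.34 CPM in control, where 7.87% of tested genes were separated in that direction. Without control 3 and Trp53 het 3, 1 of 9 was called, Gpsm1 with a fall of 0.88 on the log2 scale (standard error 0.19, edgeR adjusted p = 0.0190), where 7.72% of tested genes were called. In the same fit Gpsm1 was at -0.75 in Llgl cKO against control (edgeR adjusted p = 0.0660, where 2.8% of tested genes were called) and at -0.64 in Llgl cKO Trp53 het against Trp53 het (edgeR adjusted p = 0.0708, where 7.37% were called), neither of them called. These comparisons share control or Llgl cKO Trp53 het libraries and are not independent of each other.

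Loss of 1 Trp53 allele alone was tested by Trp53 het against control. By edgeR (adjusted p) 0 of 9 members were called, as were 0% of tested genes. An unadjusted p below 0.05 was reached by 0 of 9 against 0.432% of genes, and DESeq2 called 0 of 9 and 0% of genes. Member log2 changes ran from -0.32 (Insc) to 0.094 (Numa1). Within same-numbered libraries of Trp53 het and control, Gpsm1, Gnai1 and Insc were lower in Trp53 het in 3 of 3 pairs and Numa1 was higher in 3 of 3. The other members were mixed. No source states that the numbers pair these libraries. The share of all tested genes with 1 direction in 3 of 3 was not counted, so these directions are description only. With the replicate block the log2 changes were -0.23 for Gpsm1, -0.23 for Gnai1, -0.32 for Insc and 0.095 for Numa1, and edgeR called none (adjusted p = 1.00 each). In Llgl cKO Trp53 het against Llgl cKO, 0 of 9 were called by edgeR (adjusted p), as were 0% of tested genes. An unadjusted p below 0.05 was reached by 0 of 9 against 5.12% of genes, and by DESeq2 0 of 9 against 0.364%. The log2 changes there ran from -0.18 (Insc) to 0.19 (Gpsm2), and Gpsm2 separated the groups, at 107 ± 5.95 CPM in Llgl cKO Trp53 het and 93.7 ± 1.36 CPM in Llgl cKO, as 5.84% of tested genes did in that direction. Each comparison uses a heterozygous group with 1 library higher in Trp53 than its other libraries. Trp53 het 3, at 114.8 CPM, lay inside the control range of 109 to 130.5. Llgl cKO Trp53 het 1, at 98.3 CPM, lay above the other libraries of its group (65.9 and 67.8) but below every control and Llgl cKO library. Leaving out each library in turn gave no member call in either comparison.

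Whether the Llgl effect differed with the Trp53 genotype was tested by the interaction term. It called 0 of 9 members by edgeR (adjusted p), as it did 0% of tested genes. At an unadjusted p below 0.05 it was 0 of 9 against 2.94% of genes, and DESeq2 called 0 of 9 and 0% of genes. Gnai1 had the largest value, a log2 difference between the Llgl effects of 0.36 (95% interval -0.21 to 0.92, edgeR adjusted p = 1.00). Only 2 of the 9 intervals lay within 0.5 in either direction, so a difference of that size between the Llgl effects, in at least 1 direction, is not excluded by the intervals of the other 7. With the replicate number as a block, 0 of 9 members were called in each of the 7 comparisons, where edgeR called 4.55% of tested genes in the average Llgl effect, 0.213% in Llgl cKO against control, 2.58% in Llgl cKO Trp53 het against Trp53 het, 2.38% in Llgl cKO Trp53 het against control, and 0% in the rest.

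The partners of these proteins were 62 genes in 5 lists, of which 58 were tested. Of 24 cortical and spindle pole regulators, edgeR called 1 higher and 1 lower in the average Llgl effect, where 3.33% of all tested genes were called. These 2 were the targeted genes themselves, so they are no result about the partners. Llgl2 fell by 3.40 on the log2 scale (adjusted p = 9.5e-06) and Llgl1 rose by 0.79 (adjusted p = 0.00723). The list had 12 positive and 12 negative values and a median log2 change of 0.0047. Polarity genes such as Pard3 and Prkci and the cortical linkers ezrin (Ezr) and radixin (Rdx) were among those not called, and are named as examples. Without control 3 and Trp53 het 3, 6 of the 24 were called higher and 2 lower, where 15.8% of all tested genes were called. The higher were Llgl1 and 5 genes of the dividing cell, the spindle pole kinases Aurka and Plk1, the spindle assembly factor Tpx2, Hmmr and Sapcd2, and the lower were Llgl2 and the polarity gene Pard6b. The libraries left out had the highest mitosis sums, so the calls of genes of the dividing cell are no separate evidence. In the pairwise Llgl comparisons of that fit 6 or 7 of the 24 were called. The shares of all tested genes called there were 2.8% for Llgl cKO against control and 7.37% for Llgl cKO Trp53 het against Trp53 het. For Llgl cKO Trp53 het against control the share was 7.72%.

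Among the 10 tested genes of the G protein cycle and GoLoco proteins, 0 were called in the average Llgl effect by edgeR or DESeq2. These tools called 3.33% and 7.1% of all tested genes there, so 0 calls in a list this short lies near those shares. The list had 6 positive and 4 negative values and a median of 0.070. Ric8a, the chaperone and exchange factor of inhibitory alpha subunits, was at 0.25 (95% interval 0.067 to 0.43, edgeR adjusted p = 0.135). Rap1gap, a GTPase-activating protein for Rap1, was at -0.38 (-0.88 to 0.11, edgeR adjusted p = 0.412). It was called lower without control 3 and Trp53 het 3, where 15.8% of all tested genes were called. Neither Ric8a nor Rap1gap passed the threshold with all libraries.

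In the average Llgl effect edgeR called 3.33% of all tested genes and DESeq2 7.1%, which are the shares for the lists below. In lists this short, 0 or 1 call lies near those shares. Of 7 tested dynein subunits beside the heavy chain 0 were called by edgeR or DESeq2, with 3 positive and 4 negative and a median of -0.0061. The light chains Dynll1 and Dynlrb1 were at -0.22 (edgeR adjusted p = 0.281) and 0.13 (edgeR adjusted p = 0.430). Of 11 dynactin subunits 0 were called by edgeR, with 5 positive and 6 negative and a median of -0.011. Capza1, an actin capping subunit at the end of the dynactin filament, was at -0.47 (95% interval -0.79 to -0.15, edgeR adjusted p = 0.108) and was the 1 that DESeq2 called, while Capza2 was at 0.093. The 6 dynein regulators had 0 called by edgeR or DESeq2, with 2 positive and 4 negative. Hook3, which links dynein to cargo, and Ndel1, a partner of Lis1, were both at -0.22 (edgeR adjusted p = 0.221 and 0.601). Without control 3 and Trp53 het 3, where 15.8% of all tested genes were called, these 2 were called lower and Spdl1, which brings dynein to kinetochores, higher. In the pairwise Llgl comparisons Llgl2 was the 1 gene of the 58 that edgeR called with all libraries, and in the Trp53 comparisons and the interaction it called 0. DESeq2 called Llgl1 higher as well in each pairwise Llgl comparison, and Capza1 lower in both comparisons of Llgl cKO Trp53 het with a group that has intact Llgl1/2.

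The genes whose log2 CPM followed each member most closely over the 12 libraries of 4 genotypes were found among 13596 genes, by Pearson's r as a description. Gpsm1 had the closest, Gba2 and Plcxd1, both at 0.99. Gba2 averaged 199 ± 27.8 CPM in Llgl cKO Trp53 het, 213 ± 37.7 in Llgl cKO, 219 ± 97.4 CPM in Trp53 het libraries and 255 ± 125 CPM in the controls (SD, n = 3 each), with the wide spread in the same groups as Gpsm1. Like Gpsm1, Gba2 was lowest in Trp53 het 3 (107 CPM) and control 3 (126 CPM). Control 1 and 2 and Trp53 het 1 and 2 held 262 to 377 CPM. Since the libraries fall into separate clusters, r over all 12 also holds the differences between clusters. No r within clusters was computed. Gnai2 was followed by Wdr34 and Psrc1, both at 0.95, and Gnai3 by Snx13 and Evi5, both at 0.92. Psrc1 lay at 29.5 to 33.9 CPM in Llgl cKO Trp53 het and 26.6 to 27.8 CPM in Llgl cKO, and spread more widely in Trp53 het (19.8 to 33.4 CPM) and control (17.0 to 34.1 CPM).

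For Gpsm2 the closest were Commd3 and Gm10762, both at 0.90, and for Numa1 Dhx33 at 0.89 and Igf2r at 0.87. Dync1h1 was followed by Myh9 at 0.95 and Fam3c at 0.90, and Dctn1 by Eps8l1 at 0.94 and Fcho1 at 0.93. Gnai1 had Ube2v2 at 0.85 and Themis2 at 0.79, and Insc had Snx11 at 0.86 and Aagab at 0.85. No member was among these closest genes because members were left out of the search. The values share the libraries and their scaling, and the closest of 13596 genes is high by selection.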

How the data were processed

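Stranded mRNA libraries were prepared from total RNA, per the labels. The submitters' processing notes name STAR, featureCounts 1.6.4, DESeq2 2.11.40.8 and GRCm38, and the strand setting, annotation release and filters are not given in the sources used here. The authors deposited raw counts per gene, whole numbers with no normalization.

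Counts were analysed with edgeR 4.0.16 in R 4.3.3. Libraries were scaled by TMM, genes kept by filterByExpr (minimum count 10), and 1 robust quasi-likelihood model of 4 group means was fitted to 12 libraries (8 residual degrees of freedom). Adjustment was over the 14582 genes tested. Standard errors and 95% intervals come from the quasi-likelihood F. Levels are CPM, divided by GENCODE M21 exon length where genes are compared. For the closest genes, log2 CPM had a prior count of 2, and genes under a mean of 1 CPM were left out. The code was tested on simulated data.

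The 9 members, the gene lists and the rule for named genes were chosen with earlier results of these data known. Log2 changes were named for all members in the average Llgl effect, and elsewhere for members called or at an unadjusted p below 0.05. There were none of these, and ends of ranges, Gnai3 and Gnai1 named in other comparisons were chosen after their values were seen. In each partner list the genes named with values are those called or, with none called, the 2 with the smallest p in the average Llgl effect. Of list symbols 4 were matched by gene ID and 1 was not matched. Same-numbered control and Trp53 het libraries deviated together (correlations 0.619, 0.207 and 0.824 over genes), so numbers may pair these libraries, though no source says so. The model above has no block, and the fit with the replicate block is an alternative. The labels give no batch. Alternatives were DESeq2 1.42.0, median-of-ratios scaling, other filters, the replicate block, only the groups compared, leaving out each library in turn, and leaving out control 3 and Trp53 het 3 together.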

Additional observations from a re-analysis of the deposited data

How the results depend on the processing

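With all libraries in the fit, no alternative scaling, filter or tool gave a member call in any of the 7 comparisons, and neither did leaving out any library in turn. Leaving out control 3 and Trp53 het 3 together gave 2 calls in the average Llgl effect and 1 in Llgl cKO Trp53 het against control. When single libraries were left out, the Insc difference in the average Llgl effect ran from -0.036 to 0.21 and the Dctn1 difference from -0.051 to 0.030, so both turned. For the other members the sign held, from -0.51 to -0.095 for Gpsm1, 0.13 to 0.23 for Gnai2, -0.26 to -0.15 for Gnai3, -0.21 to -0.020 for Gnai1, 0.018 to 0.17 for Gpsm2, 0.080 to 0.17 for Numa1 and -0.12 to -0.025 for Dync1h1. With the replicate block, Gpsm1 was at -0.17 and 0 members were called in any comparison.

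Counts over all genes moved more, and the cause was not tested. In the average Llgl effect 485 genes were called, 164 to 697 without single libraries, 1034 by DESeq2 and 2334 without control 3 and Trp53 het 3. For Llgl cKO against control the values were 33, 15 to 42, 114 and 413. For Llgl cKO Trp53 het against Trp53 het they were 198, 24 to 322, 722 and 1088, with 376 under the block and 117 from the groups compared alone. For Llgl cKO Trp53 het against control they were 182, 25 to 351, 644 and 1139, with 347 under the block and 49 from the groups compared alone. For Llgl cKO Trp53 het against Llgl cKO, edgeR called 0 genes and DESeq2 52. Insc, at 17 to 50 reads per library, is the member that depth limits most.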
